A study of Mus musculus with 6 samples.

Results

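Inflammasomes are cytosolic protein assemblies that activate caspase-1 and, through it, pyroptosis, the lytic form of cell death. The genes described here are 10 components of their upper tier: the sensors Nlrp3, Nlrp1a, Nlrp1b, Nlrc4, Aim2, Naip2, Naip5 and Naip6, the adaptor Pycard (ASC), and Nek7, the kinase that licenses NLRP3. They were taken by name from a table of 16665 mouse genes, and all 10 had a row. Of these, 7 reached a mean of 1 FPKM (fragments per kilobase of exon, scaled to library depth) over the 6 libraries and were tested with 10166 genes in all. Nlrc4, Nlrp1a and Pycard lay under that level and are described by their values.

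The study used RAW264.7, an established mouse line of monocyte-macrophage leukaemia cells. Cells were transfected with a miR-125b mimic (3 libraries, labelled miR-125b overexpression) or with a negative control (NC, 3 libraries, labelled miR-125b WT), and transcripts were sequenced from total RNA. The series title ties the microRNA to atherosclerosis and pyroptosis. The sources used here do not give the mimic's dose, its arm or the time after transfection. The labels do not say whether libraries of 1 group are separate cultures. The p-values therefore describe library-to-library spread, which may be technical.

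In a resting macrophage most sensors wait at a low level. NLRP3 responds to potassium loss, lysosomal damage and many other disturbances, and its own transcript is induced by Toll-like receptor and NF-kB signalling, the step called priming. AIM2 binds cytosolic DNA, the NAIP proteins bind bacterial flagellin or parts of the type III secretion needle and pass the signal to NLRC4, and NLRP1B responds to anthrax lethal factor. NLRP3 and AIM2 carry a pyrin domain and need ASC to reach caspase-1, whereas NLRC4 and NLRP1B carry a CARD and can reach it directly. RAW264.7 cells are known to lack ASC.

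MicroRNAs lower their targets mainly through sites in 3′ untranslated regions (3′ UTRs) that pair with the seed, bases 2 to 8. The mature sequences of miR-125b are shown because the seed decides which members could hold a site. They come from RefSeq on GRCm38.p6, with the seed in capitals.
miR-125b-5p: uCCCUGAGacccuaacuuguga
miR-125b-1-3p: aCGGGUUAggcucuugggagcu
miR-125b-2-3p: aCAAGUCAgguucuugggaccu

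For each member the longest 3′ UTR in the annotation was scanned for matches to the 5p seed: CTCAGGGA (8mer), CTCAGGG without the final A (7mer-m8) and TCAGGGA without the initial C (7mer-A1). A 3′ UTR was annotated for 9 members, and 3 of them held a site: Nlrc4, Pycard and Nek7. Of these 3, Nek7 alone was among the tested genes. Among tested genes with a 3′ UTR, 5.33% held an 8mer, 11.1% a 7mer-m8, 9.72% a 7mer-A1 and 22.2% any site, over a median 3′ UTR of 1150 bases. Among all genes with a 3′ UTR, tested or not, 19.5% held any site. The sites are shown in 30-base windows of the transcript strand (GRCm38, all on the minus strand), with the site in capitals.
Nlrc4, 7mer-m8, chr17:74426738-74426767: cacagagctggCTCAGGGgttaagagcact
Nlrc4, 7mer-m8, chr17:74425521-74425550: agccttgtcttCTCAGGGctcctcagggca
Nlrc4, 7mer-m8, chr17:74425511-74425540: tctcagggctcCTCAGGGcactgctgtgcg
Pycard, 8mer, chr7:127990033-127990062: aaatagctcaaCTCAGGGAttttgctaata
Nek7, 7mer-A1, chr1:138484875-138484904: gggcttactggTCAGGGAtggtcactttaa

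Nlrc4 thus held 3 matches in a 3′ UTR of 1404 bases, starting at its bases 86, 1303 and 1313. The Pycard match started at base 2661 of 3004 and the Nek7 match at base 2107 of 4125. No match was found in the 3′ UTRs of Nlrp3 (693 bases), Nlrp1b (439), Aim2 (1022), Naip2 (296), Naip5 (868) and Naip6 (2428). A match describes letters in this annotation and not a working site.

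Depth recovered from the FPKM steps lay between 14.45 M and 16.81 M fragments per library. Of the macrophage markers all 8 were listed, led by Lyz2, and Mrc1 alone was near 0 (at most 0.0408 FPKM). Summed markers of T, B, dendritic, neutrophil, fibroblast, endothelial and epithelial cells reached at most 0.726 FPKM in any library. The summed macrophage markers ran from 6980 to 8450 in controls and from 6240 to 6480 with the mimic. Most of that sum was Lyz2, at 6515 to 7838 FPKM in controls and 5720 to 5998 with the mimic. The ranges of every other macrophage marker overlapped between the groups. Control 3 stood apart, with 13266 genes above 0 against 15141 to 15470 in the other libraries. It correlated at 0.9442 and 0.9458 with controls 1 and 2, which correlated at 0.9935 with each other. Its correlations with mimics 1, 2 and 3 were higher, at 0.9624, 0.9628 and 0.9745. Controls 1 and 2 correlated with the mimics at 0.9604 to 0.9731. Mimic 3 correlated at 0.9789 and 0.9774 with mimics 1 and 2. Results are therefore given with and without the libraries numbered 3.

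The members spanned a wide range of levels per length. Aim2 was the most abundant, at 41.1 to 57.8 FPKM over the 6 libraries, and its mean was above that of 95.2% of the genes in the table. Nek7 followed at a mean of 20.1 FPKM, above 86.4% of genes. Aim2 exceeded Nek7 in 6 of 6 libraries, and Nek7 exceeded Naip2 in 6 of 6, in both cases without overlap of their ranges. A middle tier held Naip2 (3.41 FPKM), Naip5 (2.93), Nlrp3 (2.42), Naip6 (1.61) and Nlrp1b (1.19). Neighbours within this tier overlapped: Naip2 was above Naip5 in 5 of 6 libraries, Naip5 above Nlrp3 in 3 and Nlrp3 above Naip6 in 4. Nlrp1b was above the next gene, Nlrc4 (0.191 FPKM), by 6.22 times and without overlap. Nlrp1a (0.105 FPKM) and Pycard (0.0191 FPKM) came last.

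**Figure D1:**
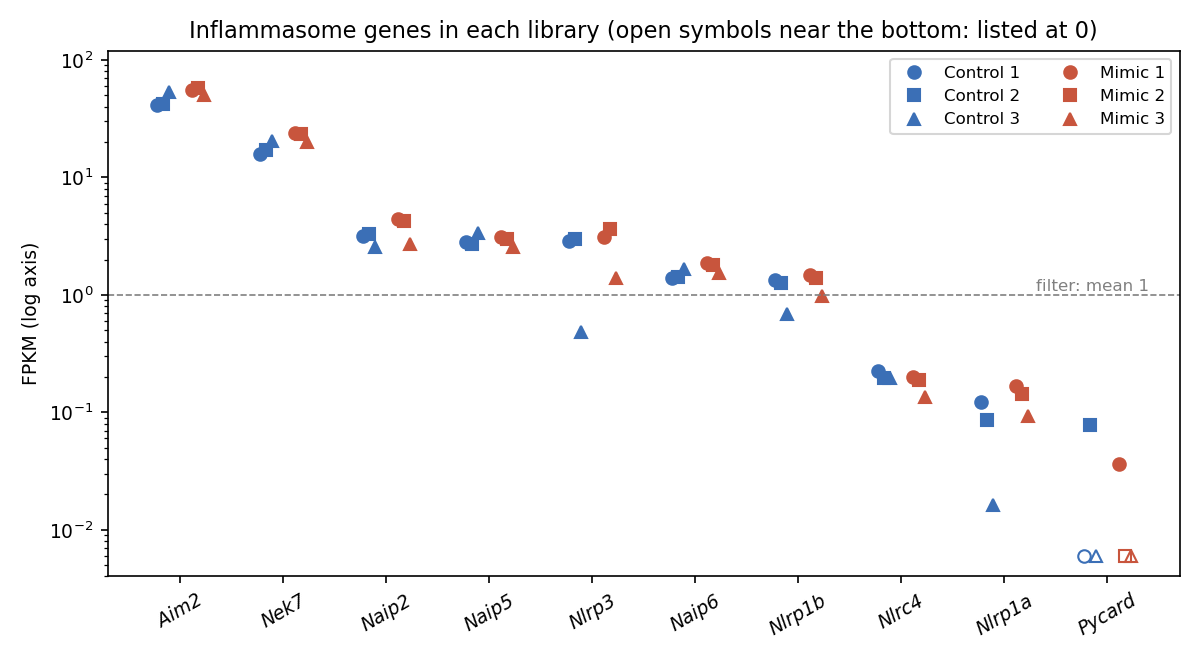
FPKM of each of the 10 genes (horizontal axis, ordered by mean) in each library on a logarithmic vertical axis, with controls in blue, mimics in red and the replicate number as the symbol. Aim2 and Nek7 lie above all others, and Pycard is listed at 0 in 4 of 6 libraries, drawn as open symbols at the bottom.

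The main comparison asked whether the mimic changed these transcripts. By limma on log2(FPKM + 1), 0 of the 7 tested members passed an adjusted p of 0.05, against 0% of all 10166 tested genes (smallest adjusted p = 0.289). At an unadjusted p under 0.05 there was 1 member, Nek7, on the higher side, where 7.96% of genes were higher and 5.26% lower. Limma voom on recovered fragments called 0 as well. In none of the 7 did the groups stay apart, where 12.6% of genes had all mimic values above all controls and 7.49% below. The median log2 fold change of the 7 was 0.25, beside 0.041 over all tested genes, and 6 of 7 estimates were above 0, as were 56.3% of genes. The members' median was 0.17 without control 3, beside −0.0064 over all tested genes in that setting. After removal of each library's trend on exon length and GC it was 0.05, beside 0.00074 over all genes, with 5 of 7 estimates above 0. That removal also takes out any mimic-control difference that follows length or GC. Fold changes on the log2(FPKM + 1) scale understate those of low genes.

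Nlrp3 (ENSMUSG00000032691; GRCm38 chr11:59541568-59566956, plus strand), the most studied sensor, read 2.89, 2.99 and 0.486 FPKM in controls 1, 2 and 3. In mimics 1, 2 and 3 it read 3.11, 3.67 and 1.39 FPKM. The libraries numbered 3 were the lowest of each group, and the groups overlapped. The log2 fold change was 0.33 (SE 0.43, 95% interval −0.67 to 1.33, limma adjusted p = 0.753). Its size depended on the scale and the weights, at 0.60 by voom, 0.58 with a pseudocount of 0.1 and 0.071 with array weights, with limma adjusted p-values of 0.705, 0.731 and 0.705. Without control 3 alone it turned to −0.14 (limma adjusted p = 0.744), and without both libraries numbered 3 it was 0.15 (limma adjusted p = 0.301).

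Nlrp3 differed more between libraries of 1 group than between the groups. Control 3 stood at 0.165 times the mean of controls 1 and 2, and mimic 3 at 0.412 times that of mimics 1 and 2. On the log2(FPKM + 1) scale these gaps were −1.41 and −0.87, where the 5th percentiles of all tested genes were −1.03 and −0.57. Only 21 of 10166 genes, Nlrp3 included, lay as low in both. These values rest on 29 to 247 recovered fragments per library. Compared within a replicate number, the mimic was higher by 0.08, 0.23 and 0.69 in numbers 1, 2 and 3. With the number as a block the interval of the 0.33 estimate was −0.09 to 0.75 (limma adjusted p = 0.363). After removal of the length and GC trend Nlrp3 stood at 0.37 (limma adjusted p = 0.779). Adding the block gave that estimate an interval of 0.03 to 0.7 (limma adjusted p = 0.308). Without control 3 the trend-removed estimate was 0.0076 (limma adjusted p = 0.987).

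Nek7 (ENSMUSG00000026393; chr1:138482875-138620141, minus strand) encodes the mitotic kinase family member that bridges NLRP3 subunits. It read 15.7, 17.2 and 20.5 FPKM in controls 1, 2 and 3. In the mimics it read 23.7, 23.6 and 19.98 FPKM. The only overlap was that control 3 lay just above mimic 3. The log2 fold change was 0.32 (SE 0.14, 95% interval 0.00 to 0.64, unadjusted p = 0.0491, limma adjusted p = 0.377). Nek7 is thus the member with the smallest p, and its estimate was above 0. Its 3′ UTR holds the 7mer-A1 site shown above.

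Without control 3 Nek7 passed (0.42, limma adjusted p = 0.0296), in a setting where 11.6% of genes were called higher and 12.2% lower. Without both libraries numbered 3 it also passed (0.50, limma adjusted p = 0.0025), where 23.1% were called higher and 19.9% lower. After removal of each library's trend on exon length and GC it stood at 0.048 (limma adjusted p = 0.904), and at 0.041 without control 3 as well (limma adjusted p = 0.81). Its exons total 7376 bases, the longest of the 10, and the GC content of its longest transcript was 40.4%, the lowest. The removal cannot separate a technical trend from a mimic effect that follows length or GC. The annotated span of Nek7 overlaps the antisense gene Gm28501 and, on the same strand, Gm37101 and Gm37080. Whether their exons share bases with those of Nek7 was not examined. With the strand setting unknown, antisense reads from any shared bases could not be told apart.

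Aim2 (ENSMUSG00000037860; chr1:173350879-173466040, plus strand), the DNA sensor, read 41.1, 41.9 and 53.7 FPKM in controls 1, 2 and 3. In the mimics it read 55.5, 57.8 and 50.1 FPKM. Controls 1 and 2 lay below every mimic, while control 3 lay among them. The log2 fold change was 0.26 (SE 0.14, 95% interval −0.06 to 0.58, limma adjusted p = 0.454). Aim2 passed without control 3 (0.38, limma adjusted p = 0.0223) and without both libraries numbered 3 (0.44, limma adjusted p = 0.00188). After trend removal it stood at 0.13 (limma adjusted p = 0.712), and at 0.21 without control 3 as well (limma adjusted p = 0.103). In that last setting 0 members passed, where 1.03% of genes were called higher and 2.81% lower. With array weights, which count libraries far from their group less, Aim2, Nek7 and Naip2 passed, where 27.8% were called higher and 24.1% lower. The annotated span of Aim2 overlaps Cadm3 on the opposite strand.

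**Figure D2:**
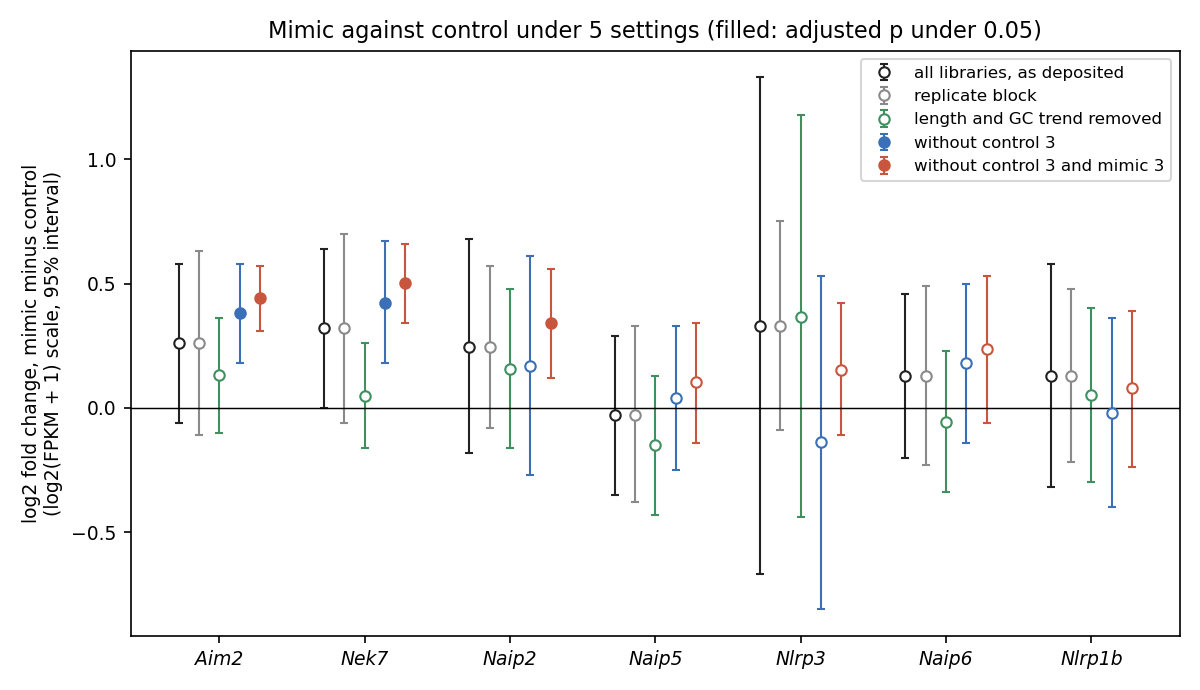
Log2 fold change of the 7 tested genes (mimic minus control, log2(FPKM + 1) scale) with 95% intervals from limma under 5 settings; filled points have an adjusted p under 0.05. Filled points appear for Aim2 and Nek7 without control 3, and for these and Naip2 without both libraries numbered 3; there are none after trend removal.

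The NAIP genes lie side by side on chromosome 13 and encode the receptors that hand bacterial ligands to NLRC4. Naip2 (ENSMUSG00000078945; chr13:100144063-100202092) recognises the inner rod protein of the secretion needle. It read 3.16, 3.28 and 2.58 FPKM in controls 1, 2 and 3 and 4.47, 4.23 and 2.72 FPKM in the mimics. As for Nlrp3, the libraries numbered 3 were the lowest of each group. The log2 fold change was 0.25 (SE 0.18, 95% interval −0.18 to 0.68, limma adjusted p = 0.571), with the mimic higher within each replicate number by 0.39, 0.29 and 0.06. It passed without both libraries numbered 3 (0.34, limma adjusted p = 0.0267), a setting with 23.1% of genes called higher and 19.9% lower. It did not pass without control 3 (0.17, limma adjusted p = 0.536), without mimic 1 (0.14, limma adjusted p = 0.882), without mimic 3 (0.42, limma adjusted p = 0.298) or after trend removal (0.16, limma adjusted p = 0.76; 0.12 without control 3 as well).

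Naip5 and Naip6 are the flagellin receptors. Naip5 (ENSMUSG00000071203; chr13:100211739-100246323) read 2.83, 2.73 and 3.34 FPKM in controls and 3.11, 3.02 and 2.55 FPKM in mimics 1, 2 and 3. Its log2 fold change was −0.03 (SE 0.14, 95% interval −0.35 to 0.29, limma adjusted p = 0.946), and its sign turned with the libraries used (0.10 without both libraries numbered 3). Naip6 (ENSMUSG00000078942; chr13:100281121-100317674) read 1.39, 1.41 and 1.67 FPKM in controls and 1.87, 1.79 and 1.52 FPKM in mimics. Its log2 fold change was 0.13 (SE 0.14, 95% interval −0.20 to 0.46, limma adjusted p = 0.708), or −0.056 after trend removal. In both genes control 3 was the highest control and mimic 3 the lowest mimic.

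Summed over the 3 genes, NAIP transcripts read 7.39, 7.42 and 7.60 FPKM in controls 1, 2 and 3 and 9.45, 9.04 and 6.79 FPKM in the mimics. Naip2 made up 34.0% of the sum in control 3 and 40.1% in mimic 3, against 42.8% to 47.3% in the other 4 libraries. The split between these genes is uncertain, because they share sequence. Of all 100-base stretches of the longest coding transcript, 16.2% of Naip5, 6.26% of Naip6 and 4.55% of Naip2 also occur in a transcript of another gene, the first being Naip3, Naip5 and Naip1. At 50 bases the shares were 36.8%, 21.5% and 19.4%. For Nlrp3, Nlrc4, Aim2, Pycard and Nek7 no 100-base stretch was shared.

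Nlrc4 (ENSMUSG00000039193; chr17:74425438-74459142, minus strand), which oligomerises once a NAIP has bound its ligand, was near the bottom of the range. It read 0.227, 0.198 and 0.198 FPKM in controls 1, 2 and 3, or 17, 16 and 14 recovered fragments. In the mimics it read 0.202, 0.188 and 0.135 FPKM, or 14, 15 and 10 fragments. Within the replicate numbers 1, 2 and 3 the mimic differed by −0.03, −0.01 and −0.08 on the log2(FPKM + 1) scale; 16.2% of tested genes were lower in all 3. The groups overlapped, and a two-sided exact permutation test of the 6 FPKM values gave p = 0.3, where the smallest p for 3 against 3 is 0.1. With no filter on low values its log2 fold change on that scale was −0.040 (95% interval −0.17 to 0.09, limma adjusted p = 0.825). At so low a level the added 1 shrinks both the estimate and its interval. Mean FPKM was 0.208 in controls and 0.175 with the mimic, or 47 and 39 summed fragments. At 10 to 17 fragments a change of this size was not detectable. A processed pseudogene lies within its span on the same strand.

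Nlrp1b and Nlrp1a are neighbouring paralogues on chromosome 11. Nlrp1b (ENSMUSG00000070390; chr11:71153102-71230733), the lethal factor sensor, read 1.33, 1.27 and 0.690 FPKM in controls 1, 2 and 3. In the mimics it read 1.48, 1.39 and 0.979 FPKM. The libraries numbered 3 were again the lowest, and the mimic was higher within each replicate number by 0.09, 0.07 and 0.23. The log2 fold change was 0.13 (SE 0.19, 95% interval −0.32 to 0.58, limma adjusted p = 0.784) and −0.020 without control 3 (limma adjusted p = 0.941).

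Nlrp1a (ENSMUSG00000069830; chr11:71092236-71144704), whose activation is known to kill haematopoietic progenitors, read 0.123, 0.0857 and 0.0163 FPKM in controls 1, 2 and 3, or 8, 6 and 1 fragments. In the mimics it read 0.166, 0.145 and 0.0936 FPKM, or 10, 10 and 6 fragments. Mimic values were higher within each replicate number, and the groups overlapped (two-sided exact permutation p = 0.2). Control 3 was under the 0.049 FPKM that 3 fragments would give there, so no fold is stated against it. The sources used here give no read length. In the annotated transcripts 2.28% of the 50-base stretches of Nlrp1a and 2.18% of those of Nlrp1b occur in another gene's transcript.

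Pycard (ENSMUSG00000030793; chr7:127989708-127993867, minus strand), the adaptor that joins pyrin-domain sensors to caspase-1, was listed at 0 in 4 of 6 libraries. Control 2 read 0.0783 FPKM, which is 5 fragments, and mimic 1 read 0.0364 FPKM, which is 2 fragments. A count of 0 still allows 3 fragments, or 0.0506 FPKM in control 1, 0.0537 in control 3, 0.0476 in mimic 2 and 0.0513 in mimic 3. No fold is given for so few fragments. A difference between the groups was not detectable at this depth. In the same libraries Aim2, a sensor that signals through this adaptor, read at least 41.1 FPKM.

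The tested members fell into 2 patterns across the libraries. Nlrp3, Nlrp1b and Naip2 had their lowest value of each group in the library numbered 3, as did 34.1% of all tested genes. Aim2, Nek7, Naip5 and Naip6 had their highest control value in control 3 and their lowest mimic value in mimic 3, as did 15.4% of genes. In 6 of the 7, Naip2 being the exception, control 3 was closer to the mimic mean than to the other controls, as it was for 65.7% of all tested genes. Within each replicate number the mimic was above the control in all 3 pairs for Nlrp3, Nlrp1b and Naip2, where 24.1% of genes were higher and 16.2% lower in all pairs. These pairs rest on the numbers in the titles, which do not say that equal numbers mark a shared culture or batch. The part of RNA quality or of the number of genes detected in these differences was not tested.

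**Figure D3:**
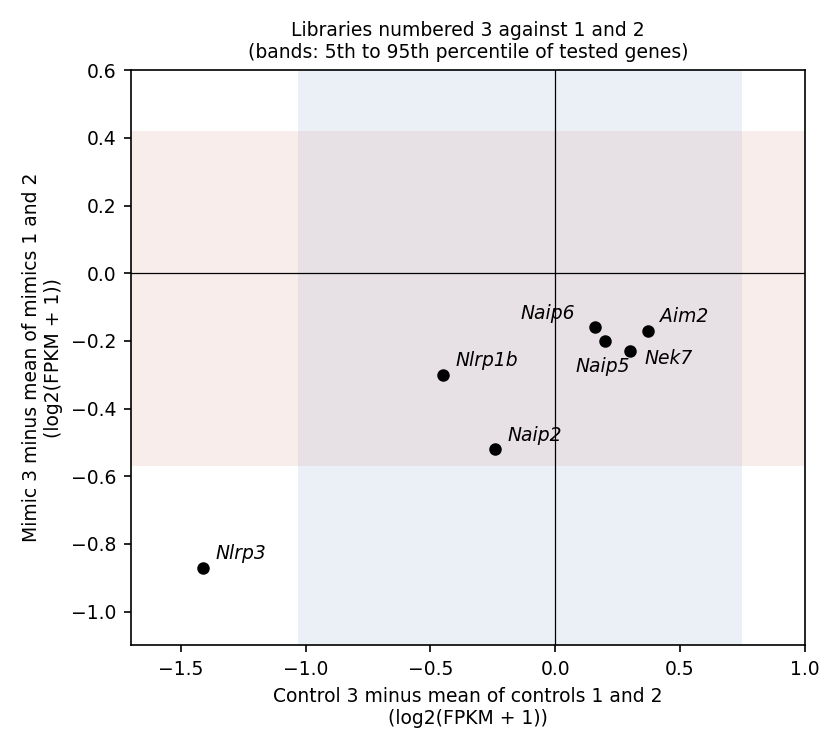
Difference of control 3 from the mean of controls 1 and 2 (horizontal) and of mimic 3 from the mean of mimics 1 and 2 (vertical), in log2(FPKM + 1), for the 7 tested genes; bands span the 5th to 95th percentile of tested genes. Nlrp3 lies outside both bands at −1.41 and −0.87, and Aim2, Nek7, Naip5 and Naip6 lie to the right of 0 and below it.

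Correlations between members over the 6 libraries are given as a description. Nlrp3 and Nlrp1b had a Pearson's r of 0.979 on log2(FPKM + 1), Aim2 and Nek7 one of 0.968, Nek7 and Naip6 0.963, and Nlrp3 and Nek7 0.0178. The grouping was loose for the other genes. Naip5 had only 0.548 with Aim2, 0.46 with Nek7 and 0.647 with Naip6, while Naip2 had 0.809 with Nlrp3 but also 0.6 with Naip6 and 0.544 with Nek7. The libraries are shared by all genes, so the values reflect any property of a library. Among 9193 named genes the profiles most like that of Nlrp3 were those of Cog8 (0.9975), Tbcel (0.9966) and Cmbl (0.9963). For Aim2 they were Gstcd (0.9995), Rmdn1 (0.9994) and Mef2a (0.9993), and for Nek7 they were Slf1 (0.9971), Atl3 (0.9951) and Etv1 (0.9946).

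Promoters were examined because members had like profiles, with motifs chosen after results were known. RefSeq holds 12 promoters for the 10 members (250 bases before to 50 after a start, GRCm38.p6). They were searched on both strands for the PU.1 core GAGGAAGT, the AP-1 motif TGANTCA, the CREB motif TGACGTCA and the NF-kB motif. PU.1 is the lineage factor of macrophages, and NF-kB drives priming. A PU.1 core was found in 4 of the 12, at 4 different genes, and in 3.2% of all 32851 promoters. Nlrp1a and Nlrp1b, among the 4, are neighbouring paralogues with closely alike windows, so these matches are not independent. An NF-kB match was found in 2 of the 12 and in 4.51% of all. No AP-1 or CREB match was found, and no matches overlapped. Matches are in capitals in 30-base windows on the gene's strand, and they do not show binding. The Nlrp3 match to the NF-kB motif, like the Pycard match to the PU.1 core, reads on the reverse strand.
Nlrp3, NF-kB, chr11:59541373-59541402: ggcttctgcaGGGAACCCCCgggaattctg
Naip5, NF-kB, chr13:100247535-100247564: ccccagtacaGGGGAACTCCagggacaaga
Aim2, PU.1 core, chr1:173420480-173420509: aaaccttattgGAGGAAGTgggtcactgag
Nlrp1a, PU.1 core, chr11:71144769-71144798: cccagtgttcaGAGGAAGTacatctgccgt
Nlrp1b, PU.1 core, chr11:71230811-71230840: cccagtgtttaGAGGAAGTgcatctgtgca
Pycard, PU.1 core (reverse strand), chr7:127993893-127993922: gtccccaccccACTTCCTCcaccaacccac

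The PU.1 gene itself, Spi1, read 30.6, 30.1 and 21.04 FPKM in controls 1, 2 and 3 and 24.6, 24.8 and 24.8 FPKM in the mimics. Presence of the core did not sort the members by level: it stood at Aim2, the most abundant, and at Pycard, the least.

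The partners of these sensors gave no call in limma with all 6 libraries either. In the list of proteases, pore formers and cytokines, 0 of 8 tested genes passed, with a median log2 fold change of 0.02, or −0.1 after trend removal. At an unadjusted p under 0.05, 1 was higher (Gsdme) and 1 lower (Gsdmd), beside 7.96% and 5.26% of all tested genes. Gsdme, a gasdermin cleaved by caspase-3, read 2.75, 3.21 and 3.98 FPKM in controls and 4.54, 4.50 and 4.57 FPKM with the mimic (0.37, limma adjusted p = 0.355). Gsdmd, the gasdermin cleaved by caspase-1, read 27.3, 26.5 and 26.3 FPKM in controls and 19.8, 21.3 and 24.1 FPKM with the mimic (−0.29, limma adjusted p = 0.357). In both genes the groups did not overlap, as in 12.6% of all tested genes on the higher side and 7.49% on the lower. Both were named for their small p, which favours such separation. The estimates of Gsdme and Gsdmd were 0.0062 and −0.12 after trend removal.

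Among 20 tested regulators that license NLRP3 or act above it, 0 passed and 1 was higher at an unadjusted p under 0.05, beside 7.96% of all genes. The median was 0.17, or −0.0048 after trend removal. Usp7, a deubiquitinase of NLRP3, read 24.5, 24.0 and 24.4 FPKM in controls and 28.8, 29.96 and 33.9 FPKM with the mimic (0.33, limma adjusted p = 0.332; 0.15 with the trend removed). Mapk8, the JNK1 kinase, had a log2 fold change of 0.34 (limma adjusted p = 0.38; 0.012 with the trend removed).

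Of 16 tested genes of priming, 0 passed and 3 were higher at an unadjusted p under 0.05, beside 7.96% of all genes. The median was 0.12, or 0.014 after trend removal. Tlr4, the lipopolysaccharide receptor, read 3.50, 4.07 and 5.34 FPKM in controls 1, 2 and 3. With the mimic it read 9.46, 9.85 and 5.52 FPKM. All 3 mimics lay above all 3 controls, as in 12.6% of all tested genes, though mimic 3 exceeded control 3 only narrowly. Tlr4 was named for its small p, which favours such separation. The log2 fold change was 0.79 (SE 0.23, limma adjusted p = 0.332), 0.53 with the trend removed (limma adjusted p = 0.454) and 1.16 without both libraries numbered 3 (limma adjusted p = 0.000903). Map3k7, the TAK1 kinase, had a log2 fold change of 0.38 (SE 0.10, limma adjusted p = 0.332; 0.21 with the trend removed).

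Among the other cytosolic NLR and HIN-200 genes, 16 of 20 had a row and 8 were tested. Of these 0 passed and 2 were higher at an unadjusted p under 0.05, beside 7.96% of all genes. The median was 0.13, or 0.0086 after trend removal. The 2 were Ifi207 and Ifi203, of the HIN-200 family to which Aim2 belongs. The other tested HIN-200 genes of the list, named after their values were seen, had log2 fold changes of −0.15 (Ifi204), −0.13 (Ifi213) and 0.09 (Mndal), so the family had estimates on both sides of 0. Ifi207 read 10.3, 11.7 and 9.54 FPKM in controls and 19.1, 17.003 and 11.9 FPKM with the mimic (0.54, limma adjusted p = 0.332; 0.43 with the trend removed). Ifi203 read 9.28, 9.29 and 9.51 FPKM in controls and 13.0, 13.2 and 10.5 FPKM with the mimic (0.35, limma adjusted p = 0.344; 0.049 with the trend removed). HIN-200 genes are close paralogues, so single values are uncertain.

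The checkpoint list had 4 tested genes, of which 0 passed, with a median of 0.11 that turned to −0.085 after trend removal. An unadjusted p under 0.05 was reached by 2 on the higher side and 1 on the lower, beside 7.96% and 5.26% of all genes. DPP8 and DPP9 are the dipeptidyl peptidases that hold NLRP1 inactive. Dpp8 read 8.35, 8.69 and 8.71 FPKM in controls and 11.1, 11.4 and 10.7 FPKM with the mimic (0.33, limma adjusted p = 0.332; 0.070 with the trend removed). Ubr2, a ligase of the N-degron pathway that degrades cleaved NLRP1B, had a log2 fold change of 0.36 (limma adjusted p = 0.332; 0.27 with the trend removed). Dpp9, the lower one, named after its values were seen, read 5.99, 6.07 and 5.43 FPKM in controls and 4.80, 4.31 and 4.76 FPKM with the mimic (−0.28, limma adjusted p = 0.368). Dpp8 and Dpp9 thus had estimates on opposite sides of 0. Calls in these lists depended on the libraries. Without control 3, limma called 2 of the 8 proteases, pore formers and cytokines, 6 of the 20 regulators, 4 of the 16 priming genes, 0 of the 8 other sensors and 1 of the 4 checkpoints, in a setting with 11.6% of all tested genes called higher and 12.2% lower. Without both libraries numbered 3 the counts were 4, 11, 7, 3 and 3 in the same order, with 23.1% of all tested genes called higher and 19.9% lower.

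**Figure D4:**
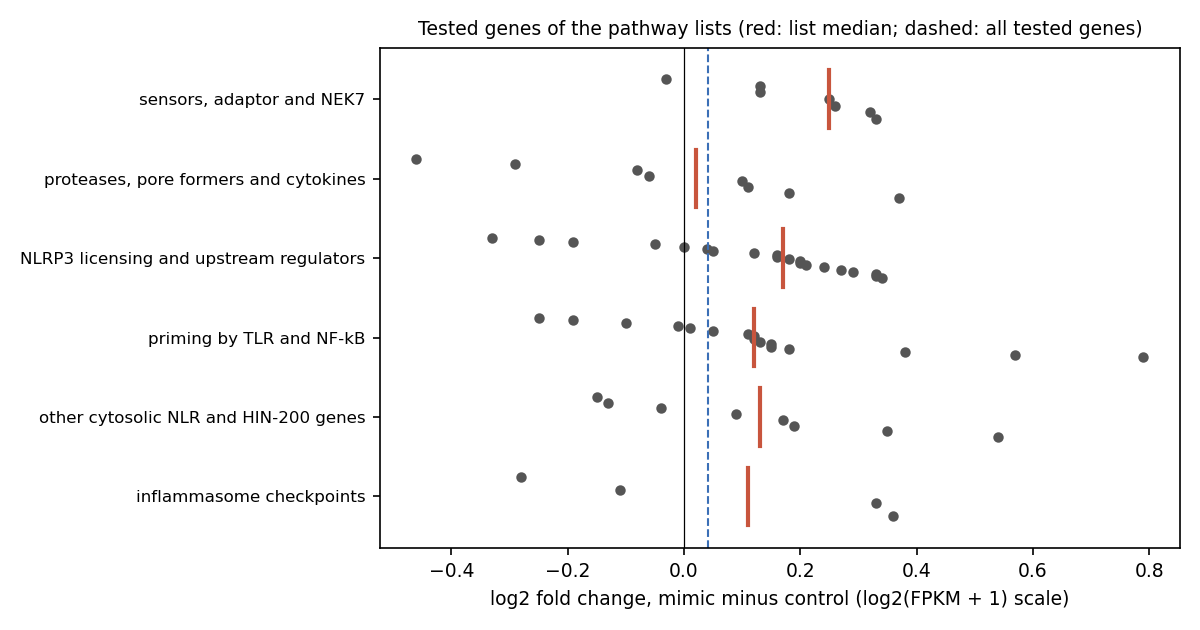
Log2 fold change (mimic minus control, log2(FPKM + 1) scale) of every tested gene in the 6 lists, each point a gene, red bars the list medians and the dashed line the median of all tested genes at 0.041. The medians run from 0.02 for proteases, pore formers and cytokines to 0.25 for sensors, adaptor and NEK7 as deposited, and from −0.1 for the first to 0.05 for the second after trend removal.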

How the data were processed

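The authors deposited 1 table of FPKM values for 16665 Ensembl genes in 6 libraries. Build mm10 and the tools HISAT2, fastp and DESeq2 are named in the submitters' processing notes; the sources used here give no versions, annotation, counting tool, strand setting or filter. Symbols, positions and 3′ UTRs came from GENCODE M21 (GRCm38), which matched 16582 identifiers and left 83. Genes with a mean of at least 1 FPKM were tested with limma 3.58.1 (R 4.3.3) on log2(FPKM + 1) values (trended variance prior, two-sided), Benjamini-Hochberg adjusted over 10166 genes, threshold 0.05; it was tested on simulated data. Depth was the value at which FPKM times exon length gave whole fragments: 98.5% to 99.0% of values up to 20 fragments lay within 0.1 of a whole number. Limits from 0 fragments cover counting error only. Length and GC trends were fitted with splines to each library's deviation from the mean over the libraries. A group difference that follows length or GC is therefore removed with them. Group and number came from titles, columns from their names.

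Same-numbered libraries deviated together from their group means (r = 0.287, 0.183 and 0.339 over genes for numbers 1, 2 and 3), so the number was also used as a block. Control 2 and mimic 1, of different numbers, reached 0.308; the other such pairs ran from −0.345 to 0.0869. Named genes were all members, the 2 tested genes with the smallest p of each list, and the 3 named genes most correlated with Nlrp3, Aim2 and Nek7. The members and lists were chosen with earlier results of these data known. Alternatives covered pseudocount, filter, scaling, weights, block, voom, trend and libraries left out; 2 were added after seeing the data.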

Additional observations from a re-analysis of the deposited data

How the results depend on the processing

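With every alternative of pseudocount, filter, scaling, replicate block, voom (also with the block, added after seeing the data) and trend removal that kept all 6 libraries unweighted, 0 genes, 0 members and 0 pathway genes were called by limma. The replicate block changed no call (Nlrp3 0.33, adjusted p = 0.363; Nek7 0.32, adjusted p = 0.342). Leaving out libraries gave 0 to 4377 genes, 0 to 3 members and 0 to 28 pathway genes. Calls came only without control 3 (2412, 2 and 13) and, added after seeing the data, without both libraries numbered 3 (4377, 3 and 28). Array weights, whose estimation stopped short of its tolerance, gave 5276 genes, 3 members (Aim2, Nek7 and Naip2) and 29 pathway genes. With the trend removed and control 3 left out there were 389 genes, 0 members and 1 pathway gene, Sugt1 (−0.43). Signs turned for Nlrp3 (−0.14 to 0.62 with libraries left out), for Nlrp1b (−0.020 to 0.23, and −0.035 with the trend removed and control 3 left out), for Naip5 (−0.071 to 0.039 with 1 library left out, 0.10 without both libraries numbered 3 and 0.10 with array weights) and for Naip6 with the trend removed (−0.056, also with the block, and −0.029 without control 3). The cause was not tested. Nlrc4, Nlrp1a and Pycard are limited by depth, at 0 to 17 fragments per library.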
